A study of Mus musculus with 12 samples.

Results

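Transcripts of 4 microtubule affinity-regulating kinases (Mark1, Mark2, Mark3 and Mark4) and of 5 microtubule-associated proteins (Mapt, Map2, Map4, Map1a and Map1b) were examined in the hippocampus of adult male C57BL/6 mice, of the substrain C57BL/6J. The members were chosen by gene symbol in GENCODE M21, which gave 9 of the 35580 genes in the table and 103 of its 115270 transcripts. The 12 mice, all at postnatal day 70, fell into 4 groups of 3. Control mice had dams that drank water only and stayed undisturbed with them. Ethanol mice were exposed before birth through dams that voluntarily drank 10% ethanol in a continuous preference test during gestation. Ethanol remained available to these dams until postnatal day 10, so access was not limited to gestation and ran into the days of isolation. Stress mice had dams that drank water only and were isolated from dam and littermates for 3 hours a day on postnatal days 2 to 14. Ethanol + stress mice had both exposures. RNA was the total RNA of dissected hippocampus, depleted of ribosomal RNA, so the values are averages over many cell types and fewer cells of a type cannot be told apart from less RNA per cell. Each value is in TPM, a measure of transcript abundance corrected for transcript length and here further scaled between libraries, and the TPM of a gene's transcripts were summed to give its level. Per the study's methods, the pups of each litter were divided at random on postnatal day 2 between isolation and no isolation. Control and stress mice may thus be littermates, as may ethanol and ethanol + stress mice. The litter of each mouse was not given in the sources used here, so no fit included it, and p-values measure the spread between these 12 libraries.

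Microtubules in neurons are long tracks for transport, and microtubule-associated proteins bind along them and set how stable they are. Tau, the product of Mapt, is found mainly in axons and MAP2 mainly in dendrites, while MAP4 is made in many cell types. MAP1A and MAP1B are large proteins that are cut into heavy and light chains, and MAP1B is best known from growing axons. MARK kinases, the mammalian relatives of the polarity kinase PAR-1, phosphorylate a serine in the KXGS motifs of the microtubule-binding repeats of tau, MAP2 and MAP4, which loosens these proteins from the microtubule. MARK kinases are switched on when LKB1 or a TAO kinase phosphorylates a threonine in their activation loop.

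The sites that join the kinases to these proteins can be read in the coding sequences. A pattern of 21 bases for the repeat motif, AANNNNGGNTCNNNNNNNAAN on the coding strand and in frame, which spells the KXGS codons, a pair of free codons and a codon for lysine or asparagine, was searched in 54145 annotated coding sequences of 21794 genes. Its first codon also admits asparagine, and serine codons that begin with AG are not covered, so its matches are not a count of KXGS motifs. The pattern occurred in 1.25% of the coding sequences and at least 3 times in 0.0369% of them, which belonged to 4 genes, namely Mapt, Map2, Map4 and Cast, the gene of the protease inhibitor calpastatin. The matches in the isoforms Map2-207 and Map4-205 are given in stretches of 45 bases, since they are the stretches where MARK kinases meet their substrates. They are written 5′ to 3′ on the coding strand, and capitals mark the 4 codons of the KXGS motif.
Map2 match 1: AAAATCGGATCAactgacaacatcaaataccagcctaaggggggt
Map2 match 2: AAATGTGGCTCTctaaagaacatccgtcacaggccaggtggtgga
Map2 match 3: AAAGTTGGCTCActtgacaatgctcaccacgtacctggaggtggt
Map4 match 1: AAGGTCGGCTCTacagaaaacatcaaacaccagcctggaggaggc
Map4 match 2: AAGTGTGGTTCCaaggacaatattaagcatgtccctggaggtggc
Map4 match 3: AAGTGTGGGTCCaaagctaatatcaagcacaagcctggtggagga
Map4 match 4: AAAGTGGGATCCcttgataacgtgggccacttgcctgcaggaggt

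The Map2 matches lie on the plus strand of chromosome 1 (GRCm38) from chr1:66425481-66425525 to chr1:66438313-66438357, and those of Map4 on the plus strand of chromosome 9 from chr9:110068938-110068982 to chr9:110079840-110079884. The second stretch of Map2 and the third of Map4 each span a junction of 2 exons. Pairs of a Map2 and a Map4 stretch were 53.3% to 73.3% identical.

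Map2 can leave out a whole repeat by skipping an exon of 93 bases, which lies at chr1:66431527-66431619 (GRCm38, plus strand). It is shown because it decides the number of repeats, and it held no match to the pattern.
Map2 93-base exon: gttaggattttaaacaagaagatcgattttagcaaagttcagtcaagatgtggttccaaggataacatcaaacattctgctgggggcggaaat

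The 39 bases of the activation loop are shown for each kinase, with the codon of the phosphorylated threonine in capitals. The pattern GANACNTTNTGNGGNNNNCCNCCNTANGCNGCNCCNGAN, which follows the codons of the loop, was searched in frame on the coding strand and matched 0.0277% of the coding sequences, and the genes that held it were Mark1, Mark2, Mark3 and Mark4. Pairs of the loops were 76.9% to 82.1% identical. They lie at chr1:184919629-184919667 on the minus strand (Mark1), chr19:7285843-7285881 on the minus strand (Mark2), chr12:111627163-111627201 on the plus strand (Mark3) and chr7:19443228-19443266 on the minus strand (Mark4), all GRCm38.
Mark1 activation loop: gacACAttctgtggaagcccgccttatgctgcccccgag
Mark2 activation loop: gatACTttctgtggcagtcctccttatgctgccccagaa
Mark3 activation loop: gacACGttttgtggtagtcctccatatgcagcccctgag
Mark4 activation loop: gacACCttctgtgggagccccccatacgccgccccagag

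Sequencing depth, estimated from the spacing of the lowest values, was between 12061554 and 14833516 read pairs per library. The defining markers of hippocampal neurons were present in every library, with the 6 dentate and CA genes at a summed 300.5 to 379 TPM against 7.32 to 21.2 TPM for 4 striatal genes and 25.2 to 40.2 TPM for 4 thalamic genes. The 4 markers of immature neurons summed to 17.98 to 25.0 TPM, the 4 of astrocytes to 436 to 688 TPM and the 6 of oligodendrocytes to 2824 to 6167 TPM. Choroid plexus markers varied most, from 39.2 to 7224 TPM for 5 genes. The 5 blood genes summed to 1603 to 2022 TPM in control mice, 3146 to 6815 TPM in ethanol mice, 2593 to 3392 TPM in stress mice and 2454 to 6480 TPM in ethanol + stress mice. All 5 were called higher in the ethanol group, in the ethanol + stress group and for the ethanol main effect, and their part in the results on the 9 genes was not tested. Of the other markers, 1 was called, the dentate gene C1ql2, which was lower for the ethanol main effect (log2 difference -0.30, limma adjusted p = 0.76). Libraries also differed in the balance between long and short genes. A length index, the median log2 deviation of genes of 5000 bases or more minus that of genes under 1500 bases, was -0.35 in ethanol replicate 2, -0.31 in ethanol + stress replicate 2, -0.24 in ethanol + stress replicate 3 and -0.14 in stress replicate 1. It lay between -0.041 and 0.25 in the other libraries.

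The 9 genes were all expressed in every library, and their levels covered a wide range. Map2 was highest at a mean of 873 TPM over the 12 libraries, followed by Map4 at 293 TPM, Map1a at 199 TPM, Map1b at 197 TPM and Mapt at 154 TPM. The kinases were lower, with Mark3 at 65.2 TPM, Mark2 at 31.1 TPM, Mark1 at 25.9 TPM and Mark4 at 22.6 TPM. This order of Map2 over Map4 over Map1a, and of Mapt over Mark3 over Mark2, held in 12 of 12 libraries without overlap of the ranges. Map1a exceeded Map1b in only 5 of 12 libraries, so those neighbours could not be ordered. Map1b exceeded Mapt in 10 of 12 libraries and Mark1 exceeded Mark4 in 11 of 12, and both pairs had overlapping ranges. Mark2 exceeded Mark1 in 12 of 12 libraries although their ranges overlapped. Mark3 held 41.7% to 47.8% of the summed MARK level of a library, and Map2 held 45.2% to 57.7% of the summed level of the 5 microtubule-associated proteins.

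**Figure D1:**
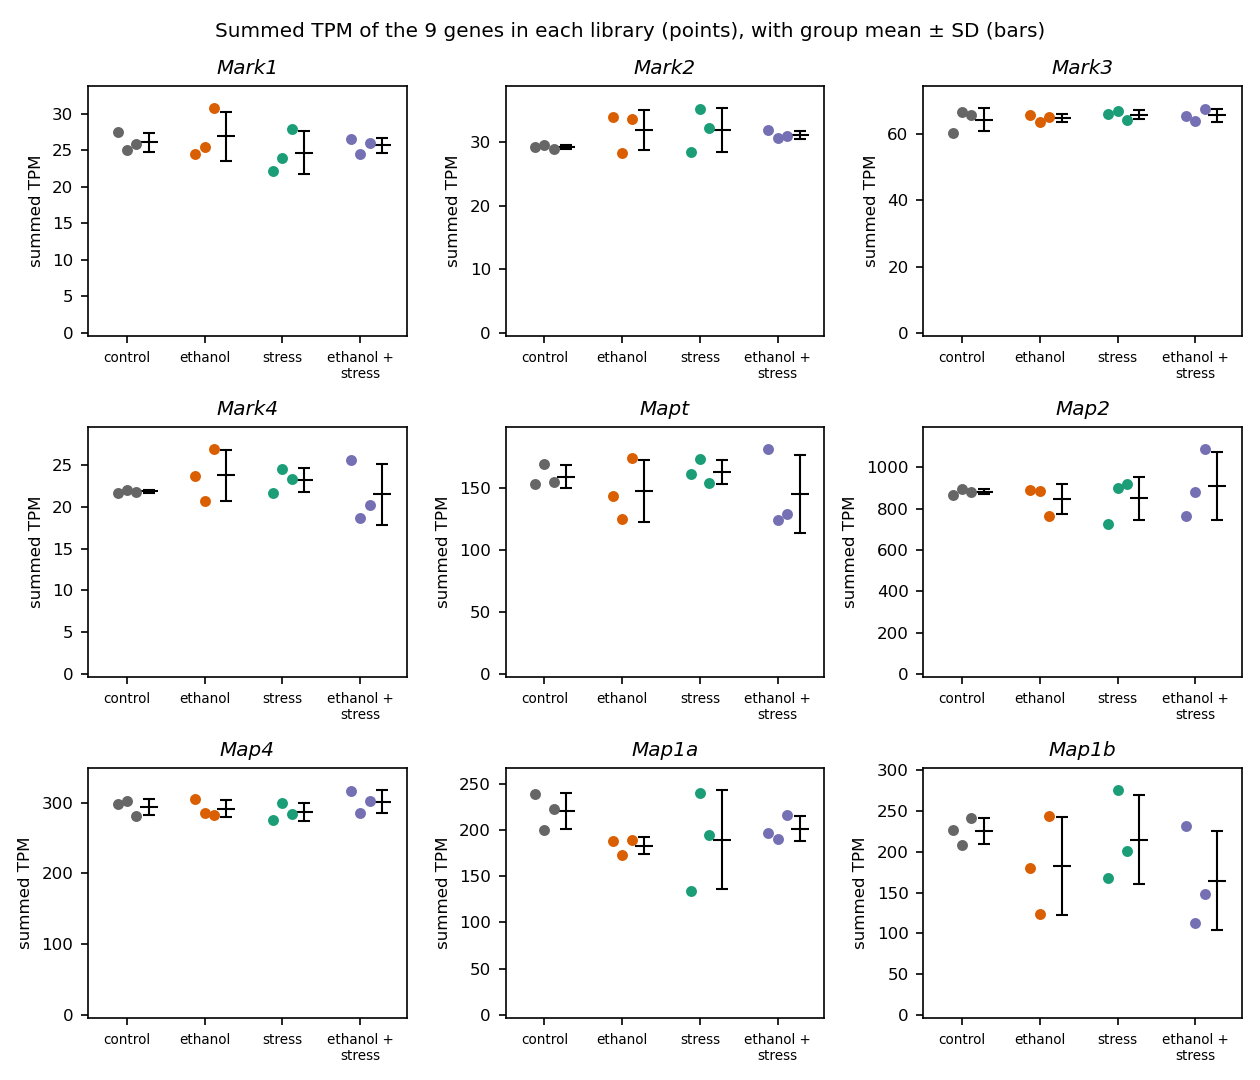
Summed TPM (vertical axes, from 0) of the 9 genes in each of the 12 libraries, by group (horizontal axes). Points are libraries and bars are the mean ± SD of 3. As deposited, the control values of Mark2 sit between 28.9 and 29.6 TPM, below the 3 ethanol + stress values, and Map1b spreads from 113 to 275 TPM.

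The comparison of each treatment with control asked whether prenatal ethanol, maternal separation or both altered the expression of these genes. None of the 9 gene sums passed the threshold of an unadjusted p under 0.01 in limma, in any of the 3 treatments, in the main effect of either exposure or in their interaction, and none passed an unadjusted p under 0.05. Over all 18434 genes tested, 0.678% passed 0.01 in ethanol mice, 0.51% in stress mice, 0.971% in ethanol + stress mice, 1.12% for the ethanol main effect, 0.586% for the stress main effect and 0.461% for the interaction. At 0.05 the shares were 3.63%, 2.4%, 5.37%, 5.79%, 3.28% and 2.69% in the same order. An adjusted p under 0.05 was found for 0.00542% of genes in each of ethanol mice, ethanol + stress mice and the ethanol main effect, and for 0% elsewhere. The median log2 difference of the 9 genes was -0.01 in ethanol mice, -0.03 in stress mice and -0.03 in ethanol + stress mice, beside 0.02, 0.0042 and 0.02 over all genes. The 3 treatments shared the same control mice. The smallest adjusted p of a member was 0.76, for Map1b and Mapt in the ethanol main effect.

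Among the kinases, Mark2, which acts in cell polarity and neuronal migration, had values of 29.2, 29.6 and 28.9 TPM in control mice, 34.0, 28.3 and 33.6 TPM in ethanol mice, 28.4, 35.2 and 32.1 TPM in stress mice and 31.9, 30.7 and 30.9 TPM in ethanol + stress mice. The ethanol + stress values were all above the control values, while 1 ethanol and 1 stress library fell below them. Groups without overlap were found for 10.2% of all genes tested in ethanol + stress mice, with 5.63% higher, and Mark2 was the 1 member among them. This separation held on the deposited scale but not with libraries rescaled to equal sums, and overlap under other scalings was not examined. Rescaled to equal sums, Mark2 measured 29.6, 31.1 and 30.7 TPM in control mice and 34.6, 27.2 and 27.4 TPM in ethanol + stress mice. The log2 difference was then -0.04 (SE 0.17), beside a median of -0.09 over all genes. In stress mice the share was 7.2%, with no member. The log2 difference of Mark2 was 0.12 in ethanol mice (95% interval -0.093 to 0.34), 0.12 in stress mice (-0.096 to 0.33) and 0.09 in ethanol + stress mice (-0.12 to 0.30), each with a limma adjusted p of at least 0.82. Leaving out 1 library at a time gave 0.08 to 0.20 in ethanol mice and 0.05 to 0.20 in stress mice.

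Mark1, a kinase of neuronal microtubules, gave 27.6, 25.0 and 25.8 TPM in control mice, 24.5, 25.5 and 30.8 TPM in ethanol mice, 22.1, 24.0 and 28.0 TPM in stress mice and 26.5, 24.5 and 26.0 TPM in ethanol + stress mice. The 4 groups overlapped. Mark3, the most abundant of the kinases, varied least of the 9 genes, with a coefficient of variation of 2.96% over the 12 libraries and values from 60.4 to 67.6 TPM. Its log2 difference from control lay within 0.04 of 0 in each treatment, with 95% intervals inside -0.14 to 0.19. Mark4, which acts near the centrosome, measured 21.7 to 22.1 TPM in control mice, 20.8 to 26.9 TPM in ethanol mice, 21.7 to 24.5 TPM in stress mice and 18.7 to 25.7 TPM in ethanol + stress mice. Its control values were the closest together of any gene and group here, with a coefficient of variation of 0.86%, against 17.2% in ethanol + stress mice.

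Among the substrates of the kinases, Mapt measured 153, 169.7 and 155 TPM in control mice, 144, 125 and 175 TPM in ethanol mice, 161, 174 and 154 TPM in stress mice and 181, 125 and 129 TPM in ethanol + stress mice. Ethanol replicate 2 and ethanol + stress replicates 2 and 3 were the lowest, and ethanol + stress replicate 1 was the highest of all. The log2 difference was -0.12 (SE 0.15) in ethanol mice, 0.03 (SE 0.15) in stress mice and -0.15 (SE 0.15) in ethanol + stress mice. Leaving out 1 library at a time it ranged from -0.24 (without ethanol replicate 3) to -0.0052 (without ethanol replicate 2) in ethanol mice. In ethanol + stress mice it ranged from -0.33 (without ethanol + stress replicate 1) to -0.056 (without ethanol + stress replicate 2). Map2 measured 869, 895 and 884 TPM in control mice, 892, 886 and 765 TPM in ethanol mice, 728, 899.7 and 922 TPM in stress mice and 763, 882 and 1087 TPM in ethanol + stress mice. The stress and ethanol + stress groups lay on both sides of the control values, and no ethanol library was above them. Map4 spanned only 276 to 317 TPM over all 12 libraries, with a coefficient of variation of 4.22%.

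Map1a, the MAP1 protein of mature neurons, measured 239, 199 and 223 TPM in control mice and 188, 172 and 189 TPM in ethanol mice, so the 3 ethanol values lay below the control values. Groups without overlap were found for 8.25% of all genes tested in ethanol mice, with 3.19% lower, and Map1a was the 1 member among them. With libraries rescaled to equal sums the groups overlapped, at 242, 209.5 and 237 TPM in control mice and 187, 147 and 213 TPM in ethanol mice, with a log2 difference of -0.35 (SE 0.21). Stress mice gave 134, 239.8 and 195 TPM and ethanol + stress mice 197, 190.5 and 216 TPM, both of which overlapped with control. The log2 difference of Map1a in ethanol mice was -0.26 with a 95% interval of -0.63 to 0.10 (limma adjusted p = 0.9966). This sum includes transcripts that are not protein-coding. Coding transcripts held a mean of 78.6% of it in control mice and 88.0% in ethanol mice, so the coding part differed less than the sum. Map1b measured 226, 209 and 241 TPM in control mice, 180.0, 123 and 244 TPM in ethanol mice, 168, 275 and 201 TPM in stress mice and 231, 113 and 149 TPM in ethanol + stress mice. It had the widest spread of the 9 genes, 2.44-fold between its lowest and highest library, and the treated groups reached below the control range and, for ethanol and stress, above it. The log2 difference of Map1b was -0.36 (SE 0.28) in ethanol mice, -0.10 (SE 0.28) in stress mice and -0.52 (SE 0.28, limma adjusted p = 0.79) in ethanol + stress mice. Single libraries moved these values, to -0.10 in ethanol mice without ethanol replicate 2 and -0.59 without ethanol replicate 3. In stress mice the difference was 0.06 without stress replicate 1 and -0.29 without stress replicate 2. In ethanol + stress mice it was -0.28 without ethanol + stress replicate 2 and -0.79 without ethanol + stress replicate 1.

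**Figure D2:**
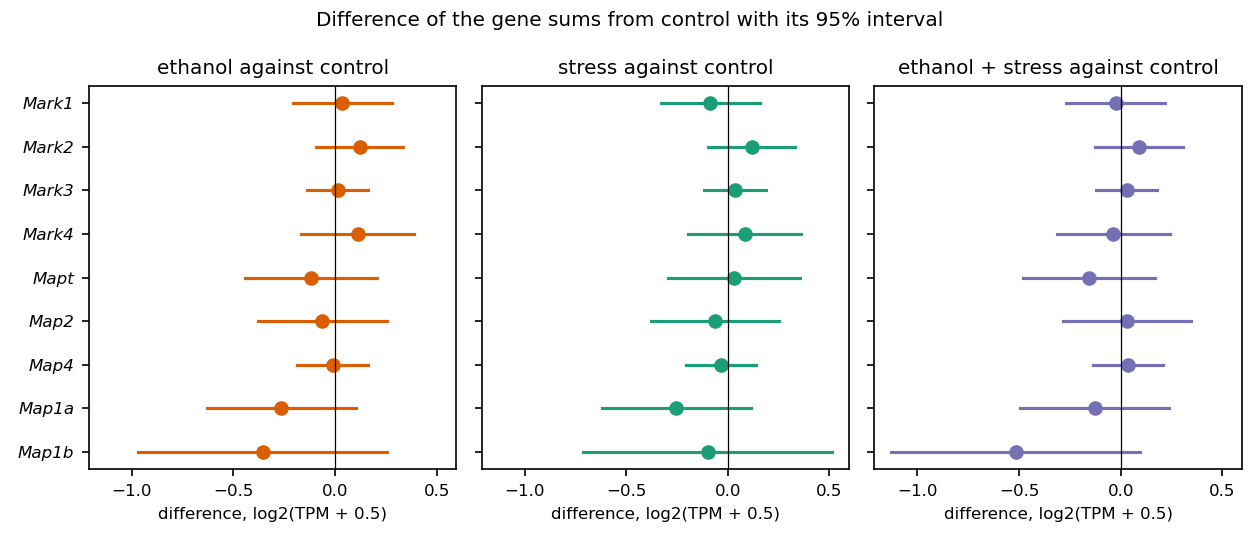
Difference of each treatment from control in log2(TPM + 0.5) for the 9 gene sums, with dots for the estimate and lines for its 95% interval from limma; the vertical line marks no difference. Every interval crosses 0, and the intervals of Map1b are the widest, reaching from -1.13 to 0.096 in ethanol + stress mice.

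The levels of several members followed the length index of the libraries. Over the 12 libraries Map1b had a Pearson r of 0.97 with the index (p = 1e-05, the smallest that 100000 permutations can give, adjusted p = 9e-05 over 9 genes) and a Spearman rho of 0.97 (p = 1e-05). Without the 2 libraries farthest from the median index r was 0.95, and within the groups, after their means were removed, it was 0.97. Map1b is itself a long gene, with a mean transcript length of 10832 bases weighted by TPM. Mapt, at 4349 bases in neither length class, had an r of 0.91 (permutation p = 0.00012, adjusted p = 0.00054) and a rho of 0.88 (p = 0.00039), with r at 0.82 without the 2 farthest libraries and 0.91 within groups. Mark4 had an r of 0.82 (permutation p = 0.0010, adjusted p = 0.0031) and a rho of 0.85 (p = 0.00075), with r at 0.74 without those libraries and 0.96 within groups. Mark4, at 3372 bases, is in neither length class. For the other 6 genes r ranged from -0.34 for Map2 to 0.48 for Mark2, with adjusted p of at least 0.26. Map1a, which is also a long gene at 8607 bases, was among these 6 with an r of 0.42. Among all genes tested 20.8% had an r over 0.5 with the index, as did 53.8% of the 1838 genes of 5000 bases or more, which themselves define it.

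**Figure D3:**
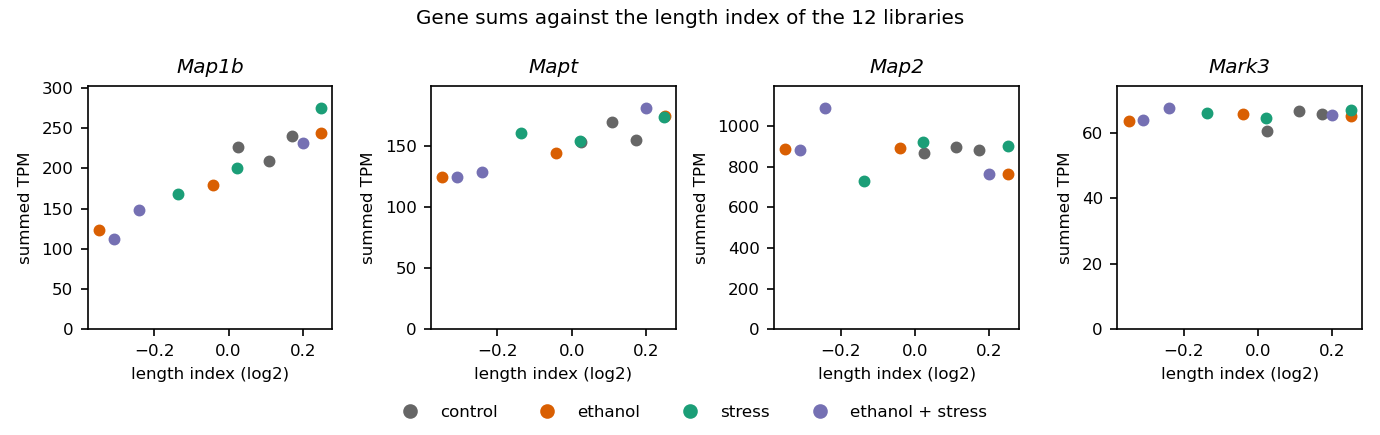
Summed TPM of Map1b, Mapt, Map2 and Mark3 (vertical axes, from 0) against the length index of each library (horizontal axes, log2), with points coloured by group. Map1b and Mapt rise with the index, from 113 and 125 TPM at their lowest, while Map2 has an r of -0.34 and Mark3 of 0.19 with it.

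When ethanol replicate 2 and ethanol + stress replicates 2 and 3, the libraries with the lowest index, were left out, a choice made after seeing the data, the log2 difference of Map1b in ethanol + stress mice was 0.04 (SE 0.25) in place of -0.52, and that of Mapt was 0.19 (SE 0.13) in place of -0.15. That of Mark4 was 0.23 (SE 0.12) in place of -0.04. These libraries hold the 3 lowest values of Map1b, of Mapt and of Mark4, so leaving them out had to raise each of these differences. The ethanol main effect of Map1b was 0.02 without these libraries and -0.39 (SE 0.20) with them. The single ethanol + stress library left was assumed to vary like the other groups. When a smooth trend over transcript length was instead removed from each library, the Map1b difference in ethanol + stress mice was -0.38 (SE 0.19) and no member was called. The glial markers were spread more widely in ethanol + stress mice than in control mice, with oligodendrocyte sums of 3675 to 6167 TPM (median 6144) against 4428 to 4803 TPM. Astrocyte sums were 470.4 to 688 TPM (median 687) against 530.2 to 567 TPM, and their part in the Map1b and Mapt values was not tested.

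The 9 genes were also examined by isoform. Of the 103 transcripts, 80 passed the filter on low values, 23 did not, and 7 were at 0 in every library. By mean level over the libraries the leading isoforms were Mark1-201 with 85.5% of the summed TPM of its gene, Mark2-202 with 38.7%, Mark3-208 with 41.8%, Mark4-202 with 65.5%, Mapt-204 with 78.7%, Map2-204 with 36.1%, Map4-206 with 27.2%, Map1a-202 with 79.0% and Map1b-201 with 90.0%. Each was the highest of its gene in 12 of 12 libraries except Mark3-208, in 11, and Map4-206, which was highest in 7 and below Map4-204 in the other 5. Mark4-202 is annotated as a processed transcript without a coding sequence, and the coding isoform Mark4-201 was lower, at 6.03 TPM against 14.8 TPM. Mapt-204, without the N-terminal insert exons, is annotated with a last exon of 4119 bases, and Mapt-201, which carries an insert, with a last exon of 248 bases. Reads from a long 3′ end can be assigned only to isoforms annotated with it, so shares of such isoforms also follow the annotation.

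For Mapt, 5 annotated transcripts run through the repeats. Together these transcripts held 87.02% to 93.5% of the TPM of Mapt, and the rest were shorter annotated fragments. Of that part, transcripts with an N-terminal insert made up 9.34% to 14.4%. In Map2, transcripts over the largest coding exon of 3741 bases, which is skipped in the short form known as MAP2c, held 48.8% to 51.9% of the TPM in every library. Map2-204, which has that large exon, is annotated with a last exon of 397 bases. Map2-201, Map2-202, Map2-205 and Map2-207, which lack it, are annotated with last exons of 3790 or 3792 bases. This share therefore also follows the annotation and does not measure the amount of the short form. Among Map2 transcripts with both exons that flank the 93-base exon, 3.09% to 6.76% of the TPM was in transcripts that hold it. Annotated transcripts without that exon thus held the larger share in every library.

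Isoform shares were compared by exact two-sided permutation tests in 110 comparisons, and none had an adjusted p under 0.60. In 3 mice against 3 no p can be below 0.1. In 6 mice against 6, where the smallest possible p is 0.0022, 5 of 44 comparisons had an unadjusted p under 0.05. Both Mapt classes among the 5 include Mapt-204 and are not separate results, and such shares were not computed for other genes. Mapt-204 held 80.5%, 77.2% and 82.3% of Mapt in control mice, 80.2%, 79.0% and 82.2% in ethanol mice, 76.8%, 76.1% and 75.2% in stress mice and 78.6%, 79.5% and 76.8% in ethanol + stress mice. The share averaged 77.2% with stress and 80.2% without it (exact permutation p = 0.019, adjusted p = 0.60), and the stress values lay below all control and ethanol values. The share of Mapt transcripts that run through the repeats averaged 89.0% with stress and 91.8% without (exact p = 0.017, adjusted p = 0.60). The coding share of Mark3 was 93.4% to 94.4% in control mice, 87.03% to 90.8% in ethanol mice, 89.7% to 93.8% in stress mice and 85.0% to 93.8% in ethanol + stress mice, with means of 88.1% with ethanol and 93.01% without (exact p = 0.022, adjusted p = 0.60). That difference of -4.88 percentage points was -1.55 (exact p = 0.14) over isoforms at a mean of 0.5 TPM or more and -2.44 (exact p = 0.20) without the 3 libraries of lowest length index. The coding share of Mark4 averaged 23.3% with stress and 30.1% without (exact p = 0.045, adjusted p = 0.60). The share of the 93-base exon of Map2 averaged 5.86% with ethanol and 4.69% without (exact p = 0.035, adjusted p = 0.60), in a class that was added after seeing the data. Without those 3 libraries it was higher by 0.76 percentage points (exact p = 0.29). No difference in shares therefore passed the correction.

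**Figure D4:**
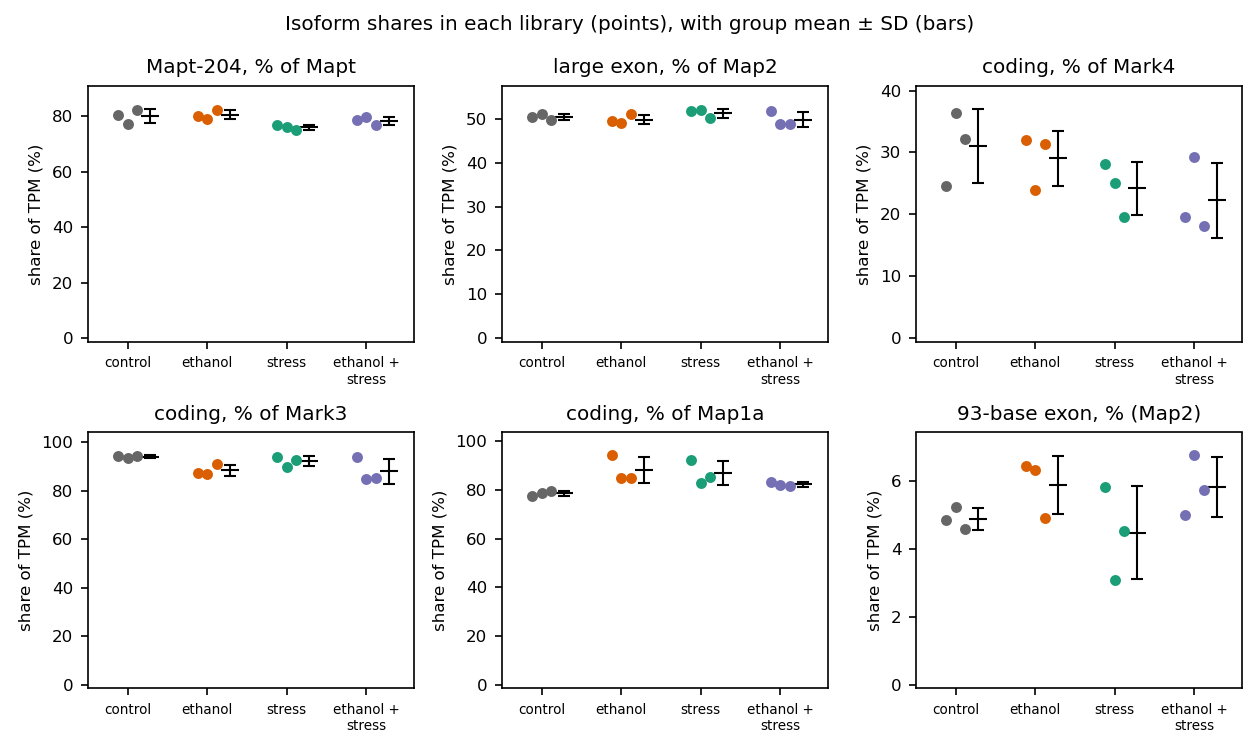
Shares of a gene's TPM (vertical axes, %) held by 6 isoform classes in each library, by group (horizontal axes), with points for libraries and bars for the mean ± SD of 3. Panels for Mark3, Mark4 and Map1a show protein-coding transcripts, and the last shows Map2 transcripts with the 93-base exon among those with both flanking exons. The control values of Map1a, 77.5% to 79.6%, lie below all 9 treated values.

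The coding share of Map1a was 77.5%, 78.7% and 79.6% in control mice and lay above that in each treated library, at 84.8% to 94.1% with ethanol, 83.0% to 92.2% with stress and 81.6% to 83.3% with both. Each of these 3 comparisons gave the smallest exact p of 0.1, and they share the control mice. That p was reached in 11 of the 66 comparisons of 3 against 3, of which 6 were of Map1a and 5 of Mark3, Map2 or Mapt. The remainder was mainly Map1a-204 (ENSMUST00000133283.1), a processed transcript of 411 bases at chr2:121295463-121307621 (GRCm38, plus strand), which was singled out after its values were seen. It measured 53.7, 40.3 and 44.8 TPM in control mice, 11.1, 26.2 and 28.3 TPM in ethanol mice, 10.4, 40.3 and 28.1 TPM in stress mice and 30.6, 34.7 and 39.2 TPM in ethanol + stress mice. Ethanol replicate 1 and stress replicate 1 were the lowest. Its log2 difference was -1.16 (SE 0.45) in ethanol mice with a limma adjusted p of 0.87, and it did not pass the threshold.

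In the test of single transcripts, 7 of the 80 that passed the filter were called at an unadjusted p under 0.01 in at least 1 comparison, beside 4.18% of all transcripts, and none at an adjusted p under 0.05, which held for 0.00668% of all transcripts in ethanol + stress mice, 0.0234% for the ethanol main effect, 0.00167% for the stress main effect and 0% elsewhere. There was 1 call in ethanol mice, 1 in stress mice, 2 in ethanol + stress mice, 3 for the ethanol main effect, 3 for the stress main effect and 0 for the interaction, where 5 had an unadjusted p under 0.05 beside 4.06% of all transcripts. Over all 59852 transcripts tested the share called was 1.26%, 0.914%, 1.21%, 1.47%, 0.934% and 0.854%, and the members' counts of 0 to 3 in 80 stand beside these shares. Of the 7, 3 rested on under 6 estimated read pairs in every library.

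Map2-215 (ENSMUST00000141148.1), an incomplete coding transcript of 785 bases at chr1:66380702-66412930 (GRCm38, plus strand) that overlaps the largest exon, was the 1 transcript called in more than 1 treatment. It measured 5.08, 2.32 and 1.14 TPM in control mice, 7.77, 6.65 and 6.58 TPM in ethanol mice, 9.19, 6.79 and 6.45 TPM in stress mice and 7.71, 3.69 and 7.89 TPM in ethanol + stress mice. The ethanol and stress values were all above the control values, whereas ethanol + stress replicate 2 was within them. It was higher by a log2 difference of 1.34 (SE 0.40, limma adjusted p = 0.76) in ethanol mice and of 1.42 (SE 0.40, adjusted p = 0.95) in stress mice. Without control replicate 3, its lowest library, the differences were 0.91 and 0.99 and neither was called, and the calls were lost for 6 and 4 of 12 libraries left out in turn. It made up 0.68% of the TPM of Map2 and rested on 5.26 to 48.0 read pairs per library.

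Mapt-201 (ENSMUST00000100347.10), a complete tau isoform with 1290 coding bases at chr11:104231584-104328219 (GRCm38, plus strand), had the most reads of the called transcripts, 87.9 to 190 read pairs per library. It measured 15.9, 14.6 and 11.2 TPM in control mice, 12.5, 14.4 and 13.2 TPM in ethanol mice, 16.5, 17.5 and 17.7 TPM in stress mice and 12.7, 11.1 and 9.58 TPM in ethanol + stress mice. The control and ethanol values overlapped. It was called lower for the ethanol main effect (log2 difference -0.33, SE 0.10, limma adjusted p = 0.67). The call was lost for 9 of 12 libraries left out in turn, with differences from -0.40 to -0.28.

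Mark4-205 (ENSMUST00000209058.1), a transcript marked for nonsense-mediated decay at chr7:19425108-19458795 (GRCm38, minus strand), was at or near 0 in 2 control libraries and 1 ethanol library. It reached 2.10 TPM in the third control library and 1.02 TPM at most in ethanol mice, and measured 1.49 to 2.61 TPM in stress mice and 1.72 to 3.83 TPM in ethanol + stress mice. It was called higher for the stress main effect (log2 difference 1.62, SE 0.46, limma adjusted p = 0.9998), with overlap through that control library. All 6 stressed libraries passed the filter's level, which alone was enough for it to be tested, and the call was lost for 6 of 12 libraries left out in turn (1.37 to 2.02). Map1b-204 (ENSMUST00000223820.1), a retained-intron transcript at chr13:99507061-99516518 (GRCm38, minus strand), measured 0.244 to 0.521 TPM in control mice, 0.734 to 1.23 TPM in ethanol mice, 0.256 to 0.847 TPM in stress mice and 0.813 to 1.41 TPM in ethanol + stress mice. It was called higher in ethanol + stress mice (log2 difference 0.97, SE 0.31, limma adjusted p = 0.81) and for the ethanol main effect (0.77, SE 0.22, adjusted p = 0.65), on 2.23 to 13.0 read pairs per library. These calls were lost for 8 and 6 of 12 libraries left out in turn, with differences of 0.86 to 1.13 and 0.67 to 0.88.

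The other 3 called transcripts were close to the limit of detection, and no fold is given for them. Mark3-210, a retained-intron transcript, was listed at 0 in all control libraries and at 0.476 to 0.980 TPM in ethanol + stress mice, on at most 5.36 read pairs. It was called higher in ethanol + stress mice and for the ethanol main effect. A count of 0 in the first control library allows up to 0.529 TPM of it. Map2-210, a processed transcript, was called lower for the stress main effect on at most 2.88 read pairs. Map2-220, an incomplete coding transcript that holds the 93-base exon, was called higher for the stress main effect on at most 4.67 read pairs. These 3 passed the filter, 0.1 TPM in 6 libraries, mainly through the libraries where they were high, so a difference was in part set by the filter. Mark3-210 reached that level in 6 libraries, 5 of them with ethanol, Map2-210 in 6, 5 of them without stress, and Map2-220 in 7, 6 of them with stress.

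**Figure D5:**
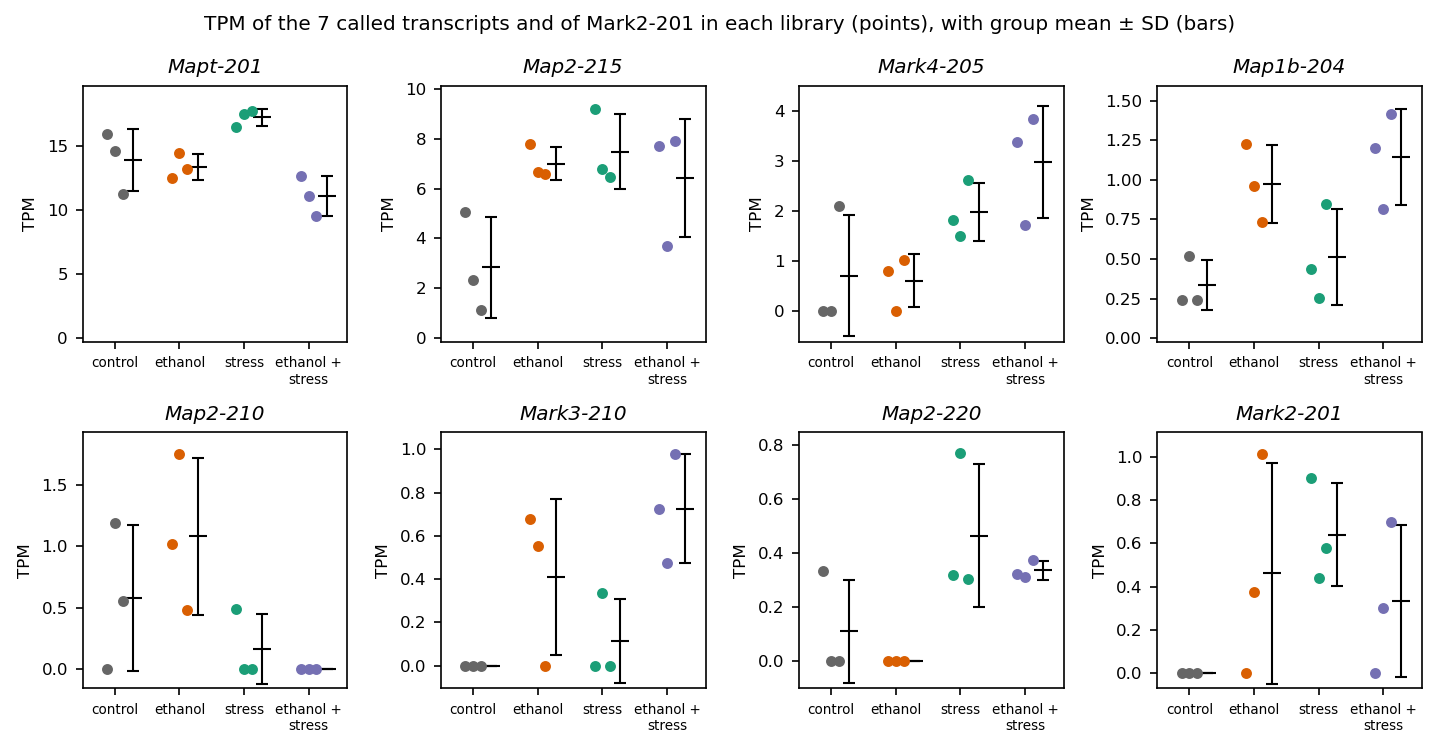
TPM (vertical axes) of the 7 called transcripts and of Mark2-201 in each library, by group (horizontal axes), with points for libraries and bars for the mean ± SD of 3, which can reach below 0. All ethanol and stress values of Map2-215, from 6.45 TPM upwards, lie above the control values, and the lower row shows transcripts under 2 TPM with many values at 0.

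Mark2 had 21 annotated transcripts, of which 10 passed the filter and none was called. Mark2-202, its leading isoform, measured 11.3 to 11.9 TPM in control mice, 11.1 to 14.0 TPM in ethanol mice, 10.3 to 13.4 TPM in stress mice and 10.1 to 13.5 TPM in ethanol + stress mice. The minor coding isoform Mark2-201 (ENSMUST00000025921.14), at chr19:7276759-7295447 (GRCm38, minus strand), was looked at after its values were seen. It was listed at 0 in all 3 control libraries and at 0.901, 0.438 and 0.578 TPM in stress mice, with at most 1.01 TPM in ethanol and 0.697 TPM in ethanol + stress mice, and each of those groups held 1 library at 0. It made up 1.15% of the TPM of Mark2. Its limma adjusted p in stress mice was 1, and it did not pass the threshold.

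Genes that act on the same proteins were taken from 6 lists with 93 genes tested. Of these, 1 was called higher in ethanol mice and 1 for the ethanol main effect (1.08% each, in both cases Cdk5r2, beside 0.678% and 1.12% of all genes), and none in stress mice, ethanol + stress mice, the stress main effect or the interaction. Cdk5r2 encodes p39, an activator of the tau kinase CDK5. It measured 21.3, 18.2 and 19.8 TPM in control mice, 25.6, 24.4 and 26.4 TPM in ethanol mice, 20.3, 20.2 and 23.4 TPM in stress mice and 22.3, 21.6 and 26.0 TPM in ethanol + stress mice. The ethanol values were all above the control values, and 8.25% of all genes had groups without overlap in ethanol mice. The log2 difference was 0.36 (SE 0.10, limma adjusted p = 0.9966) in ethanol mice and 0.24 (SE 0.07, adjusted p = 0.76) for the ethanol main effect. None of the 19 MARK regulators, which include LKB1 (Stk11), TAO kinases, atypical protein kinase C and 14-3-3 proteins, was called, nor any of the 11 related kinases, 17 other microtubule-associated proteins, 16 plus-end, minus-end and severing proteins or 12 tubulins. The medians of the 6 lists lay between -0.08 and 0.05 in ethanol mice, -0.04 and 0.02 in stress mice and -0.12 and -0.01 in ethanol + stress mice on the log2 scale. Tubulins summed to 4586 to 5351 TPM per library.

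Of 11239 genes at a mean of 5 TPM or more, those whose levels over the 12 libraries were most like Mark2 were Tom1l2, which acts in endosomal sorting (Pearson r 0.88), Fat3, a large cadherin (0.88), and Tgfbr2, a receptor of transforming growth factor beta (0.83). Those most like Mapt were Exoc8, a subunit of the exocyst (0.99), Tnfrsf21, a death receptor (0.99), and Leprotl1 (0.98). Mapt followed the length index, and likeness to it was not separated from that index. Likeness was measured over libraries of all 4 groups and is given as a description.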

How the data were processed

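The deposited table holds a signal per transcript, which the authors made from paired-end stranded total RNA reads with CASAVA, kallisto and sleuth, per the labels, on mm10. Its values are TPM scaled between libraries by the authors, and library sums ranged from 889222 to 1173650. Reads were pseudo-aligned to the Ensembl mouse transcriptome (GRCm38), and tool versions are not given in the sources used here. Transcript identifiers were matched to GENCODE M21 (GRCm38), with 113580 of 115270 matched, and TPM were summed per gene.

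A feature entered the tests if 6 of the 12 libraries or more held 0.1 TPM of it. Gene sums and transcripts, each as log2(TPM + 0.5), were fitted across the 4 groups by limma (version 3.58.1, moderated variance with trend, two-sided; R 4.3.3). A fold change on this scale understates the change of low genes. A call was an unadjusted p under 0.01, as in the study's methods, and p-values were adjusted by Benjamini-Hochberg over all features tested. Contrasts were each treatment against control, the main effects of ethanol and of stress, and their interaction. The table is not counts, so no count test was run. Read pairs were estimated from the spacing of values of up to 6 read pairs in genes with 1 transcript (80.4% to 84.5% whole within 0.1), and serve for depth and for floors of 3 read pairs, which cover counting error only. Isoform shares were tested by exact permutation, over 22 classes of which 3 were added after seeing the data (the N-terminal insert of Mapt, and the 93-base exon and Map2-204 among Map2 transcripts with both exons that flank it), and Mark1, whose transcripts were all coding, gave no test for its coding share. The script was tested on simulated data. Transcripts were named if they were leading isoforms or were called. Further transcripts were named to compare levels, to describe annotated structure or to give sequences. The processed transcript of Map1a and the minor coding isoform of Mark2 were neither leading nor called, and were picked with their values known. Pathway genes described singly were those called, and likeness was the Pearson r of log2 values. The members, lists and tests were chosen with earlier results of these data known. Coding sequences came from GENCODE M21. Figures were drawn with matplotlib 3.10.9. Some sequences are not reported here.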

Additional observations from a re-analysis of the deposited data

How the results depend on the processing

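No member gene sum was called in any of the 6 comparisons under any alternative, in 1215 repeats of 54 values. The counts of called member transcripts, 1 in ethanol mice, 1 in stress mice, 2 in ethanol + stress mice, 3 for the ethanol main effect, 3 for the stress main effect and 0 for the interaction, were less stable. In ethanol mice the count was 2 with a pseudocount of 1 or without the variance trend, and 0 with libraries rescaled to equal sums, with the length trend removed or with only the groups compared. In ethanol + stress mice it was 0 with a minimum of 1 TPM, and 1 with a pseudocount of 0.1, without a filter, with median-of-ratios size factors, rescaled to equal sums, with the length trend removed or with only the groups compared. For the ethanol main effect it was 4 without a filter and 2 without the variance trend. With a minimum of 1 TPM it was 1 for the ethanol main effect and 1 for the stress main effect. Without the 3 libraries of lowest length index, an alternative chosen after seeing the data, it was 0 in ethanol mice, 1 in ethanol + stress mice, and 1 for each main effect. Leaving out 1 library at a time gave 0 to 2 in ethanol mice, 0 to 2 in stress mice, 0 to 4 in ethanol + stress mice, 0 to 4 for the ethanol main effect, 1 to 3 for the stress main effect and 0 to 2 for the interaction. The cause of these shifts was not tested. The count of share comparisons with an unadjusted p under 0.05 was 5. It was 3 with the length trend removed, 3 without the 3 libraries and 3 to 6 when leaving out 1 library at a time. These counts can hold comparisons other than the first 5. Of those 5, only the coding share of Mark4 and the share of Mapt-204 stayed under 0.05 without the 3 libraries (exact permutation p = 0.032 each).

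Same-numbered libraries had deviations correlated at r -0.17 to 0.16, over 0.1 in 1 of 18 pairs, and were not treated as pairs. Among differently numbered libraries, ethanol + stress replicate 1 had an r of -0.33 with ethanol replicate 2 and 0.34 with ethanol replicate 3. Such values arise without a shared number, so this check cannot exclude a pairing by litter. With the replicate number as a block, the count of called member transcripts was 3 in ethanol + stress mice, 1 for the ethanol main effect and 1 for the interaction, as before in the other comparisons, and no member gene sum was called. In simulated data for ethanol against control, the test called 59% of gene sums and 31% of transcripts that had been changed by 0.5 (log2), and 89% and 64% of those changed by 1.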
